A study of Homo sapiens with 12 samples.

Results

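The E2F and RB family was followed in newly made RNA of U2OS-MycER cells as the 10 genes E2F1, E2F2, E2F3, E2F4, E2F5, E2F7, E2F8, RB1, RBL1 and RBL2, chosen by name, out of 23434 genes in the count table. U2OS is a human osteosarcoma line, and MycER is a fusion of Myc with the ligand-binding domain of the estrogen receptor, which 4-hydroxytamoxifen (OHT) activates. The design crossed 2 inducible hairpin RNAs, a non-targeting one (shNT) and one against the transcription kinase CDK12 (shCDK12), with OHT, in 3 libraries for each of the 4 groups shNT, shNT with OHT, shCDK12 and shCDK12 with OHT. Both groups with OHT had received it at 300 nM for 40 h. All 4 groups shared doxycycline at 1 µg/mL, a block in mitosis with nocodazole at 100 ng/mL for 8 h, shake-off, 12 h of release, and a pulse of 0.5 mM 5-ethynyl-uridine (EU) for 2 h. EU is built into RNA during the pulse, so that the captured RNA is what was made in that window. Before capture, 40 µg of human RNA was mixed with 10 µg of mouse RNA, but the table held no mouse genes. The values are therefore shares of the human counts, and the overall output of RNA could not be compared. Nothing in the sources used here says that the libraries of a group came from separate cultures, or that the line is or is not a single clone, so the p-values measure the spread between these libraries.

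E2F proteins are transcription factors that bind the promoters of genes for DNA replication and mitosis, in most cases together with a DP partner. The pocket proteins RB1, RBL1 (p107) and RBL2 (p130) bind E2Fs in resting and early G1 cells and hold those promoters down, until cyclin-dependent kinases phosphorylate them and the E2Fs are freed. E2F1, E2F2 and E2F3 are known mainly as activators, E2F4 and E2F5 as partners of RBL1 and RBL2 in repression, and E2F7 and E2F8 as repressors that act without DP or pocket proteins. Several of these genes are themselves E2F targets, and RB1 is a tumor suppressor lost in many osteosarcomas.

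Total counts ran from 1251695 to 5227279 in the 6 shNT libraries with or without OHT, and from 4142570 to 10447836 in the 6 libraries labelled shCDK12. CDK12, the targeted gene, was at 323, 289 and 300.2 CPM (counts relative to the library total, scaled by TMM) in shNT. It was at 293, 277 and 298 in the libraries labelled shCDK12, which overlapped shNT (log2 fold change -0.08 ± 0.08 SE, adjusted p = 0.447, edgeR's quasi-likelihood test, n = 3). With OHT it was at 434, 356 and 400.5 in shNT and at 215, 208 and 218 in the libraries labelled shCDK12, a log2 difference of -0.88 ± 0.11 (adjusted p = 0.00011). Newly made CDK12 RNA thus did not differ detectably by hairpin label without OHT. These values cover RNA made in the 2 h pulse, and total CDK12 RNA and protein were not measured, so they cannot test the knockdown. Every direction given below for shCDK12 refers to the label of the libraries. RUNX2, SPARC, COL1A1 and VIM, markers of the mesenchymal and bone lineage, were present in all 12 libraries, RUNX2 at 57.6 CPM or more and SPARC at 71.3 or more, while SP7, COL1A2, BGLAP and TWIST1 stayed at or under 3.01 CPM. The summed level of the 10 markers of that lineage was 847 to 934 CPM in shNT, 671 to 721 with OHT, 368 to 378 in the libraries labelled shCDK12 and 464 to 482 in those with OHT. Of the epithelial markers, KRT8 and KRT18 were at 227 CPM or more in all 12 libraries, CDH1 at 3.99 to 12.2, ESRP1 at or under 1.00 and KRT19 at 0. The summed level of the 6 epithelial markers was 694 to 765 CPM in shNT and 680 to 830 with OHT. It was 653 to 752 in the libraries labelled shCDK12 and 886 to 971 in those with OHT. Of the markers of blood cells, PTPRC, CD3E and HBB were under 1.37 CPM, while CD68 was at 12.4 to 31.3 CPM in all 12 libraries. Shares of lineage markers therefore moved with the groups, and their part in the values below was not tested. One library stood apart, shNT with OHT replicate 1, which differed from replicates 2 and 3 of its group by a chi-square per degree of freedom of 8.57 and 9.31, against 2.69 to 6.88 for the pairs of the other groups.

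To show which members carry the E2F letters in front of their own start, the 250 bases upstream were searched on both strands for TTTCCCGC, TTTCGCGC, TTTGCCGC and TTTGGCGC, with sequence from RefSeq (GRCh38.p14). The table of promoters held a usable window for 7 of the 10 members. The letters were found in 4 of these, E2F1, E2F2, E2F3 and RBL1, and in 979 of 35116 promoters of the same length (2.79%). The last 80 bases before the start of these 4 genes are given 5′ to 3′ on the strand of the gene, with the E2F letters in capitals, as GCGGCAAA or GCGGGAAA where the match was on the other strand.
E2F1, chr20:33686386-33686465, minus strand: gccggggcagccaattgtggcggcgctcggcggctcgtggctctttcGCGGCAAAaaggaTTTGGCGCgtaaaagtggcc
E2F2, chr1:23531234-23531313, minus strand: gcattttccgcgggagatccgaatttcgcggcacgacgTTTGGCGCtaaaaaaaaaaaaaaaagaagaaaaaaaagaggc
E2F3, chr6:20401799-20401878, plus strand: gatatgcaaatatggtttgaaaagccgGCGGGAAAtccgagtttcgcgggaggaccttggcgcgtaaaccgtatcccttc
RBL1, chr20:37095998-37096077, minus strand: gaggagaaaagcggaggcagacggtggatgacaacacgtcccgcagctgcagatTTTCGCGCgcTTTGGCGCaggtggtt
E2F1 and RBL1 each had 2 matches close to the start, at 33 to 26 and 20 to 13 bases before it in E2F1 and at 26 to 19 and 16 to 9 in RBL1. E2F2 had 1 match, at 42 to 35 bases, and E2F3 had 1, at 53 to 46. E2F4, E2F7 and RBL2 had none of the letters in their windows. The Myc E-box CACGTG was in 0 of the 7 windows and in 6.34% of all promoters. The CHR letters TTTGAA or TTCGAA, an element of genes controlled by MuvB complexes, were in 1 of 7, E2F3, and in 14.3% of all promoters. A match is a string of letters and was not read as a bound site.

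Levels can be compared between genes only per length, and CPM was divided here by the exon length of the canonical transcript in GENCODE v44. In shNT, E2F4 was highest, at 55.2 ± 2.46 CPM per kb (SD, n = 3), followed by E2F7 at 45.3 ± 2.27 and E2F3 at 44.8 ± 3.19, which did not differ beyond their spread. E2F2, E2F1 and E2F8 formed a middle group at 12.7 ± 2.07, 12.6 ± 1.97 and 12.6 ± 1.37 CPM per kb, again within their spread. The pocket proteins were lower, RBL1 at 7.46 ± 0.544, RB1 at 5.98 ± 0.540 and RBL2 at 4.51 ± 0.446, with no overlap between neighbouring genes of these 3. E2F5 was lowest, at 0.867 ± 0.573 CPM per kb. In the libraries labelled shCDK12 with OHT the order changed in places: E2F3, at 38.6 ± 1.26, stood above E2F7, at 26.4 ± 1.37, and RBL2, at 4.84 ± 0.445, stood above RB1, at 3.30 ± 0.406. Whether reads were counted over exons or over whole genes is not given in the sources used here, so these ratios depend on exon length being the right divisor.

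**Figure D1:**
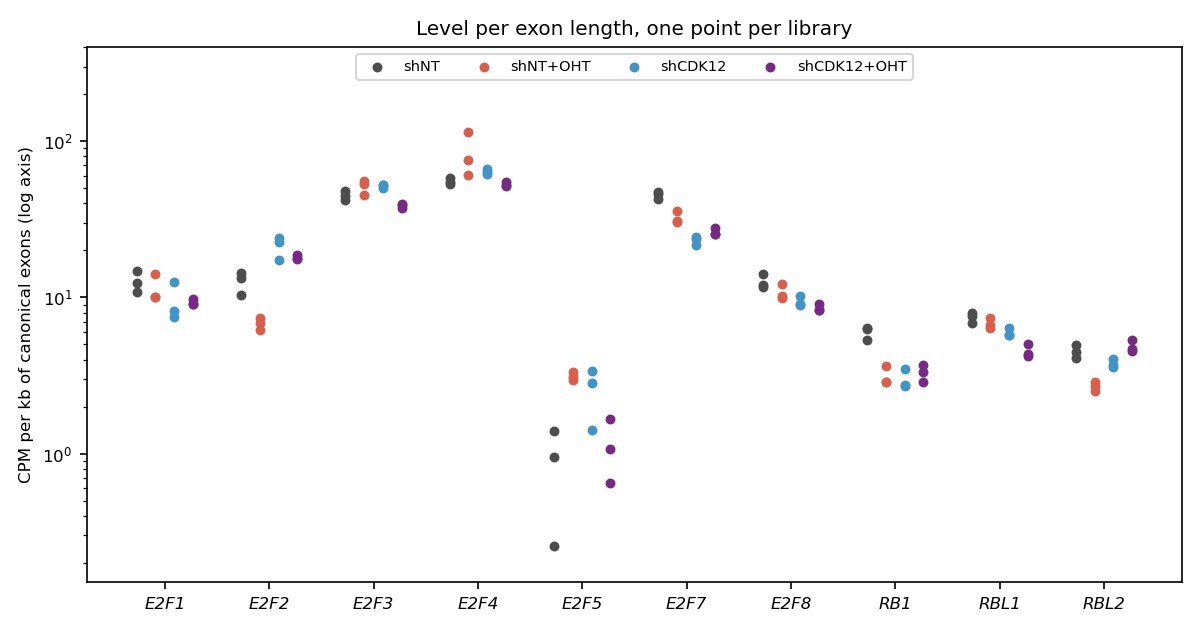
Level of each member in CPM per kb of canonical exons on a log axis, 1 point per library, coloured by group. E2F4, E2F7 and E2F3 lie above the other members in shNT, and E2F5 lies lowest there, at a mean of 0.867.

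In shNT cells, OHT lowered E2F2, E2F7 and RB1 and raised E2F4. Of the 9 members that passed the filter of a mean above 32 normalized counts, 4 were called at an adjusted p under 0.05, 1 higher and 3 lower, where 17.3% of the 10272 genes tested were called, 9.05% higher and 8.29% lower. With the trend over gene length removed, 923 of the 1469 genes then called were higher, a larger share than the 930 of 1782 here. The median log2 fold change of the 9 members was -0.22 and that of all genes was -0.03. The libraries of the groups did not overlap for 5 of the 9, against 35.9% of all genes tested.

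Among the activators, E2F2 was at 75.0, 69.1 and 54.1 CPM in shNT and at 38.2, 35.5 and 31.9 with OHT. Each OHT library lay under the lowest shNT library, and the log2 fold change was -0.92 ± 0.19 (adjusted p = 0.00461), a call that stayed when any single library was left out. E2F1, the activator best known for inducing S phase genes and cell death, was at 39.6, 29.1 and 33.1 CPM in shNT and at 38.2, 27.2 and 27.0 with OHT. These ranges overlapped almost whole (log2 fold change -0.13 ± 0.23, adjusted p = 0.749), and no change was detectable at 33 to 169 counts a library. E2F3 overlapped too, at 210 to 242 CPM in shNT and 227 to 281 with OHT (0.19 ± 0.12, adjusted p = 0.311), and was called only without shNT with OHT replicate 1 (0.29, adjusted p = 0.0473) and with the length trend removed (0.37, adjusted p = 0.0433).

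E2F4 was at 122, 115 and 112 CPM in shNT and at 240.0, 129 and 160 with OHT. The groups did not overlap, but the OHT libraries were far apart, with the highest value in the library that stood apart. The log2 fold change was 0.61 ± 0.18 (adjusted p = 0.0350), and 0.34 (adjusted p = 0.0487) without that library. Without any 1 of the shNT libraries, or without shNT with OHT replicate 3, the adjusted p was 0.0530 to 0.133, and it was 0.0772 with the length trend removed.

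E2F7, an atypical repressor of E2F targets, was at 271, 261 and 246 CPM in shNT and at 175, 176 and 206 with OHT. All 3 OHT libraries were below all 3 of shNT, and the log2 fold change was -0.48 ± 0.12 (adjusted p = 0.0138). Leaving out an shNT library ended the call of E2F7 in each case (adjusted p = 0.0528 to 0.0829). E2F8, its close relative, was at 42.9 to 52.5 CPM in shNT and 37.0 to 45.2 with OHT, and the ranges overlapped (-0.22 ± 0.19, adjusted p = 0.463).

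RB1 showed the largest fall of the pocket proteins. It was at 29.7, 30.3 and 25.6 CPM in shNT and at 13.8, 17.3 and 13.6 with OHT, a fold of 0.509 (log2 fold change -0.98 ± 0.25, adjusted p = 0.0157). The groups lay well apart, though the counts were few, 21 to 155 a library. Without shNT replicate 1 or 2 or shNT with OHT replicate 3, the adjusted p of RB1 was 0.0775, 0.0931 and 0.0586, and with the length trend removed it was 0.0534. RBL2 was at 19.9, 24.2 and 21.6 CPM in shNT and at 12.2, 13.2 and 13.9 with OHT, also without overlap, but missed the threshold (-0.74 ± 0.27, adjusted p = 0.0668). RBL1 overlapped, at 39.1 to 45.2 CPM and 36.0 to 42.1 (-0.15 ± 0.19, adjusted p = 0.612).

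**Figure D2:**
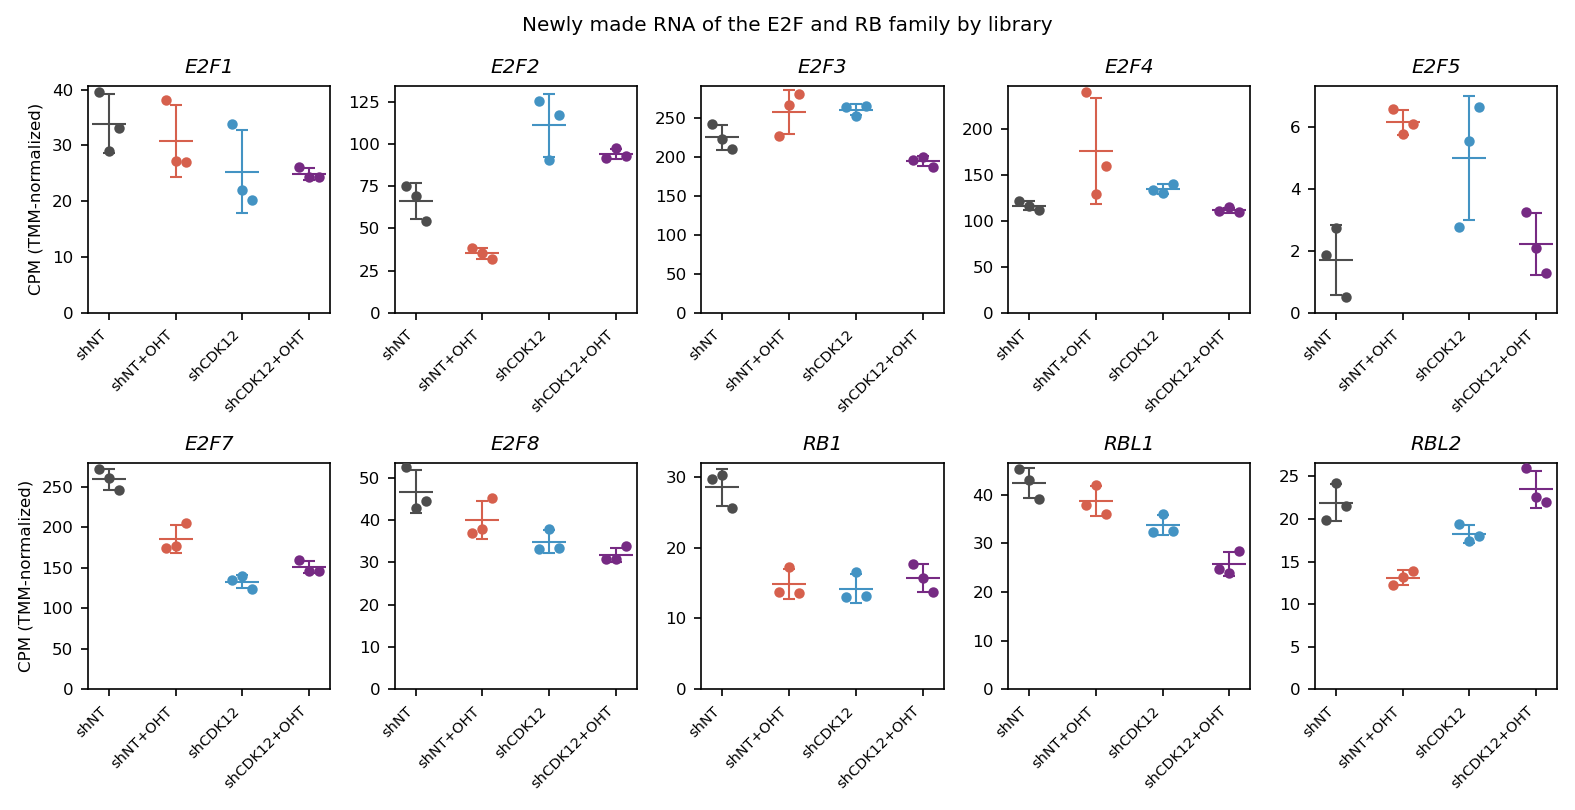
CPM of each of the 10 members in every library, with the mean (bar) and SD (whiskers) of the 3 libraries of each group, each axis starting at 0. RB1 is highest in the 3 shNT libraries, at 25.6 to 30.3, while E2F2 is lowest in shNT with OHT, at 31.9 to 38.2.

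Without OHT, the libraries labelled shCDK12 held more E2F2 and E2F3 and less E2F7, E2F8, E2F1, RB1 and RBL1 RNA than shNT. This comparison shares the shNT libraries with the one above. It called 7 of 9 members, 2 higher and 5 lower, where 62% of the 11718 genes tested were called, 29.6% higher and 32.4% lower, so that a call here is common. The split depended on the scaling: upper-quartile normalization gave 3 higher and 2 lower, DESeq2 gave 2 and 3, and removal of the length trend gave 3 and 3. The groups did not overlap for 8 of 9, against 64.5% of all genes tested. The median log2 fold change was -0.34 for the members and -0.03 for all genes.

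E2F2 was at 126, 90.1 and 117 CPM in the libraries labelled shCDK12, all above the shNT maximum of 75.0, and rose by a log2 fold change of 0.71 ± 0.13 (adjusted p = 4.5e-05). E2F7 was at 134, 139 and 124 CPM, all below the shNT minimum of 246, and fell to a fold of 0.510 (-0.97 ± 0.09, adjusted p = 8.6e-10). RB1 was at 13.0, 16.6 and 13.1 CPM, all below the shNT minimum of 25.6, with a fold of 0.501 (log2 -0.997 ± 0.190, adjusted p = 7.2e-05). The calls of these 3 genes stayed in every alternative that tested them, RB1 being under the filter once the libraries were thinned to the smallest total.

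The other calls were close to the threshold, and E2F8, E2F1 and RBL1 lost theirs with upper-quartile normalization (adjusted p = 0.0534, 0.112 and 0.143). E2F8 was at 33.1, 38.0 and 33.5 CPM, under the shNT minimum of 42.9 (-0.42 ± 0.15, adjusted p = 0.0163), and RBL1 was at 32.4, 36.1 and 32.6 CPM, under the shNT minimum of 39.1 (-0.34 ± 0.15, adjusted p = 0.0474, and 0.0563 with the replicate number as a block). E2F3 was at 265, 253 and 265 CPM, just above shNT (0.20 ± 0.08, adjusted p = 0.0410), with adjusted p-values of 0.0723 to 0.140 without shNT replicate 2 or 3 or shCDK12 replicate 1 or 3. E2F1 was at 33.8, 21.9 and 20.2 CPM, overlapping shNT through replicate 1 (-0.44 ± 0.19, adjusted p = 0.0495). Without shCDK12 replicate 1 the value of E2F1 was -0.68 (adjusted p = 0.00269), and without shNT replicate 1 it was -0.30 (adjusted p = 0.255). E2F4 (0.20 ± 0.10, adjusted p = 0.0707, but 0.0118 with upper-quartile normalization) and RBL2 (-0.27 ± 0.19, adjusted p = 0.222) did not pass the test.

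**Figure D3:**
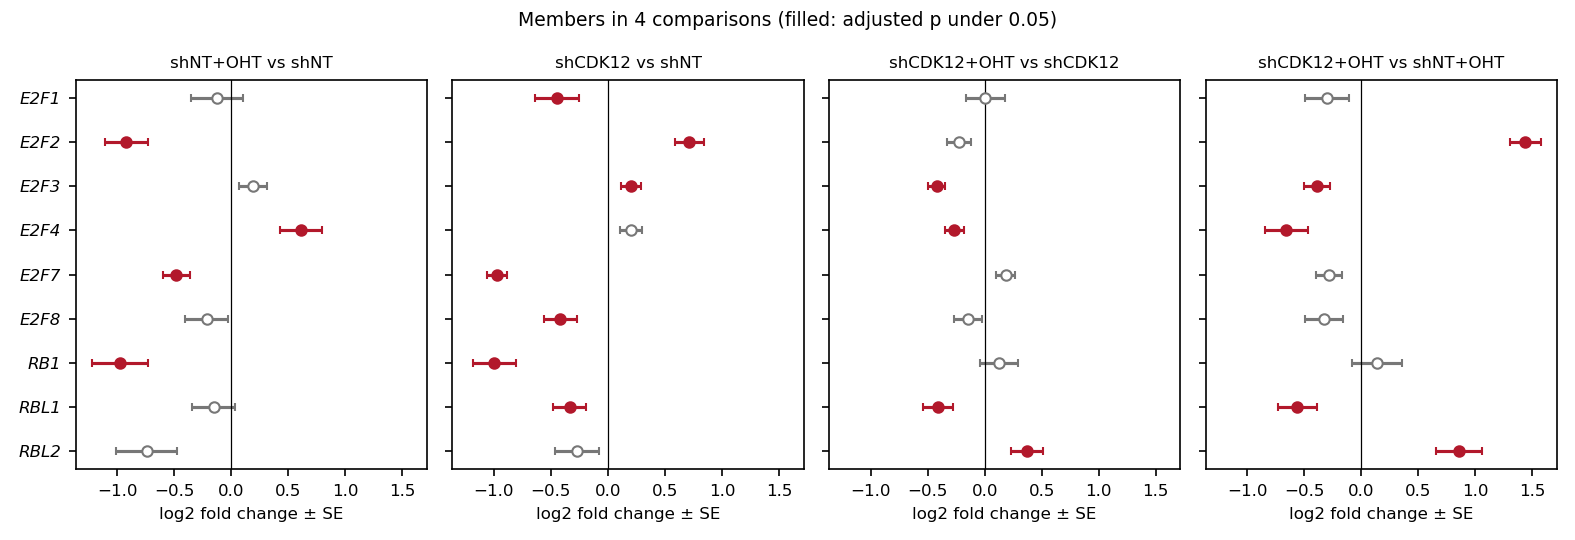
Log2 fold change with its SE (whiskers) of the 9 members tested, in 4 panels for the 4 comparisons of groups, n = 3 libraries a group. Filled red points passed an adjusted p of 0.05 and open grey points did not, and RB1 lies near -1 in the first 2 panels and near 0 in the others.

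In the libraries labelled shCDK12, OHT lowered E2F3, E2F4 and RBL1 and raised RBL2. The test called 4 of 9 members, 1 higher and 3 lower, where 48.9% of the 12519 genes tested were called, 27.5% higher and 21.5% lower. With upper-quartile normalization, or with the length trend removed, 0 were higher and 4 lower. The groups did not overlap for 5 of 9, against 56.3% of all genes tested, and the medians were -0.15 for the members and 0.05 for all genes.

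E2F3 was at 196, 200 and 187 CPM with OHT, all below the 253 to 265 without it, a log2 fold change of -0.42 ± 0.07 (adjusted p = 0.000144) that was called in every alternative. E2F4 was at 111, 115 and 109 CPM, under the 130 to 140 without OHT (-0.27 ± 0.08, adjusted p = 0.0113), and lost the call without shCDK12 replicate 3 (-0.24, adjusted p = 0.0561) and with 1 fit of all 12 libraries. RBL1 was at 24.7, 23.9 and 28.5 CPM, under the 32.4 to 36.1 without OHT (-0.41 ± 0.13, adjusted p = 0.0146). Its adjusted p was 0.0583 and 0.0845 without replicates 1 and 2 of shCDK12 with OHT.

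RBL2 was at 25.9, 22.5 and 21.9 CPM with OHT and at 19.5, 17.4 and 17.9 without it. The groups did not overlap and the log2 fold change was 0.37 ± 0.14 (adjusted p = 0.0390), but the adjusted p was 0.0579 with the replicate number as a block and 0.0511 to 0.165 without any of the libraries but shCDK12 replicate 1. E2F2 had values of 91.7 to 97.6 CPM against 90.1 to 126 (-0.22 ± 0.11, adjusted p = 0.0940), and -0.37 (adjusted p = 0.000685) without shCDK12 replicate 2, and was called with upper-quartile normalization (adjusted p = 0.0338). E2F7 did not overlap, at 146 to 160 CPM against 124 to 139, and was not called (0.19 ± 0.08, adjusted p = 0.0731). Without shCDK12 replicate 2 E2F7 was called, as higher with OHT (adjusted p = 0.0309). E2F1 (0.01 ± 0.17, adjusted p = 0.978), E2F8 (-0.15 ± 0.12, adjusted p = 0.333) and RB1 (0.13 ± 0.17, adjusted p = 0.551) overlapped between the groups.

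With OHT in both groups, the libraries labelled shCDK12 held more E2F2 and RBL2 and less E2F3, E2F4 and RBL1 RNA than shNT. Each group here also stands in a comparison above. Of 9 members 5 were called, 2 higher and 3 lower, where 45.4% of the 11668 genes tested were called, 23.8% higher and 21.6% lower. The groups did not overlap for 8 of 9, against 55.2% of all genes tested. The medians were -0.30 for the members and 0.05 for all genes, the latter -0.06 with the length trend removed.

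E2F2 had the largest difference of the 9 members tested. Its 91.7, 97.6 and 92.7 CPM stood far above the 38.2, 35.5 and 31.9 of shNT with OHT, a fold of 2.71 (log2 1.44 ± 0.14, adjusted p = 2.5e-05). RBL2 followed, with a fold of 1.81 (0.86 ± 0.20, adjusted p = 0.00560) and no library of one group within the range of the other. RBL1 was lower by a log2 value of -0.56 ± 0.17 (adjusted p = 0.0210), and had an adjusted p of 0.0507 with the replicate number as a block. E2F3 was lower (-0.39 ± 0.11, adjusted p = 0.0163), with adjusted p-values of 0.0606 to 0.0764 when any library of shCDK12 with OHT was left out. E2F4 was lower as well (-0.66 ± 0.19, adjusted p = 0.0153), by -0.40 (adjusted p = 0.00652) without shNT with OHT replicate 1, and by -0.65 and -0.64 (adjusted p = 0.0557 and 0.0623) without replicates 1 and 3 of shCDK12 with OHT. RB1, at 13.8 to 17.7 CPM against 13.6 to 17.3, overlapped (0.14 ± 0.22, adjusted p = 0.634). E2F7 (-0.28 ± 0.12, adjusted p = 0.0659), E2F8 (-0.33 ± 0.16, adjusted p = 0.124) and E2F1 (-0.30 ± 0.19, adjusted p = 0.226) did not overlap between the groups and did not pass the test. E2F7 passed with DESeq2 (adjusted p = 0.0158) and without shNT with OHT replicate 1 or 2 (lowest adjusted p = 0.00777). E2F8 passed without shNT with OHT replicate 1 (adjusted p = 0.0266).

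The response to OHT differed between the hairpin labels for 6 of the 9 members, by the interaction term of a fit of all 12 libraries (the OHT effect in the libraries labelled shCDK12 minus that in shNT). The term was positive for 4 and negative for 2, where 45.2% of the 11699 genes tested were called, 25.6% positive and 19.6% negative. All 6 were called, with the same sign, when any 1 of the 12 libraries was left out. The median of all genes was 0.10, and upper-quartile normalization moved it to -0.02, so that values of this term are read against a shift of that size. The median of the 9 members was 0.12.

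For RB1 the term was 1.12 ± 0.28 (adjusted p = 0.00320), between an OHT effect of -0.98 in shNT and one of 0.13 in the libraries labelled shCDK12, which stood at 13.0 to 16.6 CPM without OHT and 13.8 to 17.7 with it. RBL2 had a term of 1.11 ± 0.27 (adjusted p = 0.00209), with effects of -0.74 and 0.37 on either side of 0. E2F2 had a term of 0.70 ± 0.21 (adjusted p = 0.0110) with effects of -0.92 and -0.22, and E2F7 one of 0.67 ± 0.14 (adjusted p = 0.000765) with effects of -0.48 and 0.19. E2F4 went the other way, with a term of -0.88 ± 0.21 (adjusted p = 0.00201) and effects of 0.61 and -0.27, and with -0.60 (adjusted p = 0.00126) without shNT with OHT replicate 1. E2F3 had a term of -0.61 ± 0.14 (adjusted p = 0.00140) with effects of 0.19 and -0.42. E2F1 (0.12 ± 0.29, adjusted p = 0.770), E2F8 (0.07 ± 0.21, adjusted p = 0.814) and RBL1 (-0.24 ± 0.21, adjusted p = 0.364) did not pass. RBL1 passed with the length trend removed (-0.57, adjusted p = 0.0308). With all libraries thinned to the smallest total, E2F3 (-0.92), E2F4 (-1.46) and E2F7 (0.83) were called, E2F2 was not (0.86, adjusted p = 0.120), and RB1 and RBL2 lay under the filter.

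**Figure D4:**
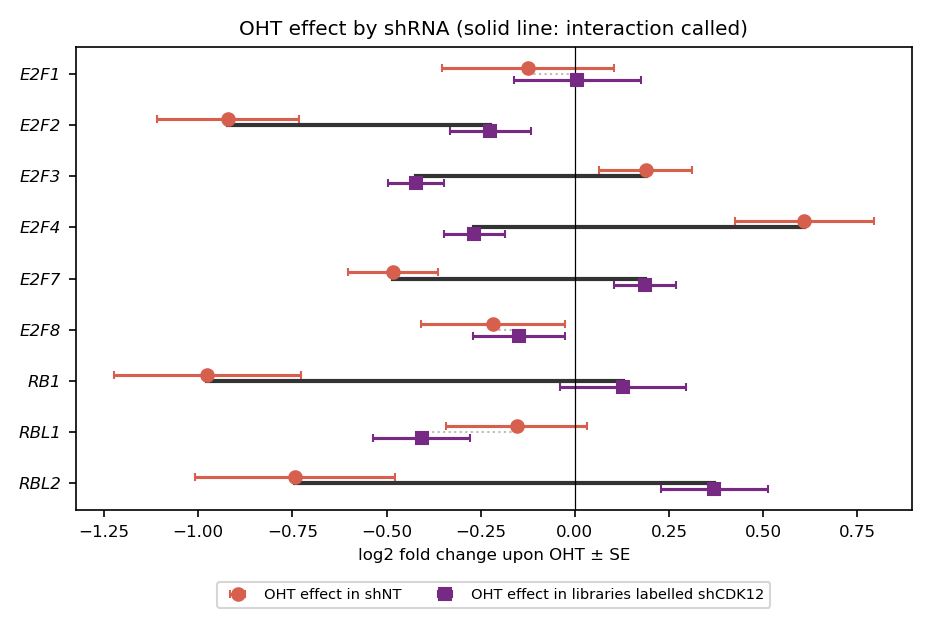
Log2 fold change upon OHT with its SE for each member, as circles in shNT and as squares in the libraries labelled shCDK12. A solid line joins the points of the 6 members whose interaction term was called, and RB1 and RBL2 have the longest lines, with terms of 1.12 and 1.11.

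E2F5, a partner of RBL2 in repression, lay under the filter and entered none of these tests. Its counts were 8, 14 and 1 in shNT, 21, 7 and 21 with OHT, 12, 53 and 36 in the libraries labelled shCDK12 and 24, 22 and 7 in those with OHT. In CPM these were 1.87, 2.73 and 0.501, then 6.58, 5.77 and 6.09, then 2.78, 5.56 and 6.66, and then 3.26, 2.09 and 1.27. The groups shNT and shNT with OHT did not overlap, nor did the 2 groups with OHT, and shNT and shCDK12 were just apart, at most 2.73 against at least 2.78 CPM. With no filter, the difference of shCDK12 from shNT was 1.39 ± 0.47 (adjusted p = 0.00935), that of OHT in shNT was 1.71 ± 0.65 (adjusted p = 0.0677), and that of OHT in the libraries labelled shCDK12 was -1.18 ± 0.33 (adjusted p = 0.00203). Between the labels with OHT it was -1.44 ± 0.48 (adjusted p = 0.0227), and the interaction term was -2.84 ± 0.69 (adjusted p = 0.000278). These rest on few reads, and a single count in shNT replicate 3 is within the noise of counting.

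RB1, RBL2 and E2F5 overlap another gene of the table, LPAR6, AKTIP and RBIS respectively. Whether the counting used strand is not given in the sources used here, so reads from the bases that a pair shares may not have been told apart. How many reads came from those bases was not measured. AKTIP differed along with RBL2. Its log2 fold change was 0.85 ± 0.19 upon OHT in the libraries labelled shCDK12 (adjusted p = 0.00128), 0.82 ± 0.26 between the labels with OHT (adjusted p = 0.0242) and 1.34 ± 0.36 in the interaction term (adjusted p = 0.00492). The values of RBL2 are therefore uncertain where the pair moved alike. LPAR6 was at 0.825 to 8.92 CPM in every library, below RB1 in each group. Its mean was 5.37 CPM in shNT and 2.61 with OHT, where RB1 was lower too, though the libraries of LPAR6 overlapped. It was 7.26 in the libraries labelled shCDK12 and 6.23 in those with OHT. Against shNT, LPAR6 was not lower under the shCDK12 label (0.52 ± 0.34, adjusted p = 0.191), where RB1 was. What LPAR6 reads added to RB1 was not tested. RBIS fell in the libraries labelled shCDK12 against shNT (-0.56 ± 0.20, adjusted p = 0.0150), opposite to E2F5.

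The genes whose level over the 12 libraries was most like that of a member were found by the root mean square difference of log2 CPM, each gene centred on its mean, over 11698 other genes. For RB1, TBX3 and LOX were among the 3 nearest, with differences of 0.170 and 0.176 (median of all genes 0.549). For E2F8 they were CANX, TARS1 and MBD4, with 0.114, 0.119 and 0.121 (median 0.435), and for E2F1 they were TNS1, MEF2D and SAMD4B, with 0.136, 0.137 and 0.156 (median 0.477). Within the family, E2F8 and RBL1 were closest, at 0.156, then E2F7 and E2F8 at 0.212 and E2F7 and RB1 at 0.228. E2F2 and E2F7, which were called in opposite directions in shCDK12 against shNT, were 0.897 apart. These distances are descriptions over libraries that share their groups and depths.

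The genes around the family were followed in 5 lists, chosen with earlier results of these data known. Of all genes tested, 17.3% were called upon OHT in shNT, 62% in shCDK12 against shNT, 48.9% upon OHT in the libraries labelled shCDK12, 45.4% between the labels with OHT and 45.2% in the interaction, and each count of a list stands beside that share. The partners and regulators of E2F and pocket proteins (21 genes: E2F6, the DP genes, D and E cyclins with their kinases, the kinase inhibitors, SKP2, CDC25A and CCNF) gave 2 higher and 3 lower of 18 tested upon OHT in shNT, and 1 and 2 without any 1 of the shNT libraries or shNT with OHT replicate 3. CCND2, a D-type cyclin whose kinase phosphorylates RB1, rose by 1.32 ± 0.10 (log2), and CDK4 by 0.49 ± 0.15, while CCNE2 fell (-1.32 ± 0.25) and CCND1 fell (-1.09 ± 0.11). In the libraries labelled shCDK12 against shNT, 6 of 20 were higher and 7 lower, a share close to that of all genes. CCND2 (1.80 ± 0.08) and CDKN2D (0.86 ± 0.19) had the largest rises there, and CDKN2B (-2.34 ± 0.15), an inhibitor of CDK4 and CDK6, and CCND1 (-1.67 ± 0.08) the largest falls. Upon OHT in the libraries labelled shCDK12, 5 rose and 5 fell, with CDKN1A, the inhibitor p21, at 0.80 ± 0.07, CDKN2C at 0.77 ± 0.19, CCND2 at -0.98 ± 0.07 and CDC25A at -0.71 ± 0.08. Between the labels with OHT 5 were higher and 6 lower (3 and 4 without shCDK12 with OHT replicate 1), led by CDKN1C (2.63 ± 0.57), CDKN2C (1.97 ± 0.33), CDKN2B (-1.58 ± 0.16) and CCNF (-1.45 ± 0.13), a cyclin that marks E2Fs for degradation. The interaction term called 8 positive and 6 negative. CDKN2C at 2.09 ± 0.43 and CDKN1C at 1.95 ± 0.70 had the largest positive terms, and CCND2 at -2.30 ± 0.12 and CDC25A at -0.94 ± 0.13 the largest negative ones. CDKN1C and CDKN2C lay under the filter in the fit of shNT with and without OHT. They were tested only in fits that held libraries labelled shCDK12, so their place among the largest rises depends in part on that filter.

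The 44 E2F target genes of G1 and S phase, such as the MCM and GINS genes of the replicative helicase, gave 3 of 43 higher and 3 lower upon OHT in shNT (median log2 fold change 0.06), near the share of all genes. Without shNT replicate 1 or 2 there were 0 higher and 1 lower, without shNT replicate 3 there were 0 and 2, and without shNT with OHT replicate 3 there were 1 and 2. FEN1 (0.51 ± 0.14) and GINS3 (0.56 ± 0.15) rose, and CCNE2, also a regulator above, and BRCA1 (-0.50 ± 0.17) fell. Against shNT, 19 of 44 were higher and 8 lower in the libraries labelled shCDK12 (median 0.24, all genes -0.03), with GINS3 at 1.56 ± 0.10, MCM2 at 0.91 ± 0.10, GINS1 at -1.17 ± 0.12 and BRCA1 at -1.14 ± 0.13. OHT then lowered 30 of 44 and raised 0 in the libraries labelled shCDK12 (median -0.50, all genes 0.05), by edgeR, by DESeq2 (31 and 0) and at an unadjusted p under 0.05 (33 and 0). CCNA2, the S phase cyclin, fell (-1.01 ± 0.09), as did CDCA7 (-0.95 ± 0.18). CDCA7 lay under the filter in the fit of shNT with and without OHT. It was tested only in fits that held libraries labelled shCDK12, where it was higher than in shNT (0.89 ± 0.25). Its place among the largest falls therefore depends in part on that filter. The summed level of the list ran from 5179 to 5213 CPM without OHT and from 3590 to 3855 with it in these libraries, and from 4053 to 4370 and 4152 to 4435 in shNT without and with OHT. The order of the 4 sums put both shNT groups, which overlapped each other, between the other two. With OHT in both, 3 were higher and 16 lower between the labels, among them CCNE2 (1.42 ± 0.22), PCNA (0.61 ± 0.15), GINS1 (-1.87 ± 0.16) and GINS4 (-1.30 ± 0.20). The interaction term was positive for 2 and negative for 20 of 44, with CCNE2 at 1.30 ± 0.29, MSH6 at 0.32 ± 0.13, GINS3 at -1.44 ± 0.17 and TYMS at -1.18 ± 0.25. MSH6 was close to the threshold by edgeR (adjusted p = 0.0443). The alternatives gave 1 to 2 positive and 10 to 26 negative, with 1 and 22 by DESeq2.

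For the 20 genes of G2 and mitosis, OHT lowered all 20 in the libraries labelled shCDK12 (median -0.86, all genes 0.05), led by KIF20A (-1.36 ± 0.12) and PLK1 (-1.24 ± 0.15), a mitotic kinase, where in shNT only KIF20A was called, and higher (0.61 ± 0.19). Leaving out 1 library gave 0 to 3 called in shNT, with 0 when the one left out was in shNT or was shNT with OHT replicate 3. The interaction term was negative for 19 of 20 and positive for 0, KIF20A at -1.96 ± 0.24 and PLK1 at -1.70 ± 0.28. Between the labels with OHT, 14 were lower and 0 higher, led by AURKB (-1.88 ± 0.17) and UBE2C (-1.35 ± 0.13). Without OHT, 9 were higher and 3 lower in the libraries labelled shCDK12, among them CCNB2 (1.08 ± 0.12), HMMR (0.90 ± 0.17), AURKB (-0.94 ± 0.15) and TOP2A (-0.44 ± 0.08). The share called was close to the 62% of all genes in that comparison. With the libraries thinned to the smallest total, 2 were higher and 2 lower. The sum of the list was 2209 to 2392 CPM in the libraries labelled shCDK12 with OHT and 3599 to 4442 in the other 9 libraries. Libraries were made at a fixed time after release, and how far the cells of each group had come in the cycle was not measured, so level per cell and share of cells in a phase cannot be told apart.

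The 8 subunits and partners of the MuvB complex, which joins RBL2 and E2F4 in repression and MYBL2 and FOXM1 in activation, gave 0 calls by edgeR upon OHT in shNT, 0 also at an unadjusted p under 0.05, and at most 1 in each direction in any alternative, DESeq2 included. In the libraries labelled shCDK12 against shNT, MYBL1 (0.72 ± 0.21) and MYBL2 (0.29 ± 0.12) were higher and LIN52 (-0.79 ± 0.12) and LIN54 (-0.35 ± 0.13) lower, and 1 of each was called without shNT replicate 2 or shCDK12 replicate 3. Upon OHT in those libraries 1 rose, LIN52 (0.39 ± 0.10), and 4 fell, among them MYBL1 (-0.94 ± 0.17) and MYBL2 (-0.51 ± 0.09). The alternatives gave 0 to 1 higher and 0 to 5 lower there. With the libraries thinned to the smallest total, 0 of 6 rose and 0 fell. With OHT in both labels, FOXM1 (-0.55 ± 0.12) and MYBL2 (-0.53 ± 0.13) were lower, and 4 were without shNT with OHT replicate 1. FOXM1 and MYBL2 also had negative interaction terms, at -0.59 ± 0.18 and -0.85 ± 0.19, and without shNT with OHT replicate 3 the list had 2 terms called in each direction.

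Of the 12 RB cofactors and chromatin partners, 3 of 11 tested were higher and 1 lower upon OHT in shNT, and 1 and 1 without shNT replicate 2. PHB1 (1.05 ± 0.16) and PHB2 (0.68 ± 0.17), prohibitins that can bind RB1, rose and ARID4A (-1.06 ± 0.21), an RB1-binding chromatin protein, fell. OHT had the opposite called direction for PHB2 (-0.68 ± 0.09) and PHB1 (-0.55 ± 0.08) in the libraries labelled shCDK12, where 4 of 12 rose and 6 fell. These counts were 0 to 4 and 0 to 8 over the alternatives. With the libraries thinned to the smallest total, 0 of 11 rose and 0 fell. The interaction term was -1.61 ± 0.18 for PHB1, -1.37 ± 0.19 for PHB2, 1.43 ± 0.23 for ARID4A and 0.78 ± 0.21 for EMSY, with 3 positive and 5 negative in all. Against shNT, 5 were higher and 3 lower in the libraries labelled shCDK12, with PHB1 at 0.83 ± 0.10, RBBP7 at 0.76 ± 0.18, SUV39H1 at -0.80 ± 0.12 and ARID4A at -0.49 ± 0.13. With OHT, the difference between the labels called 5 higher and 5 lower, led by SMARCA2 (0.99 ± 0.26) and ARID4A (0.95 ± 0.18) upward and by SUV39H1 (-1.86 ± 0.15) and PHB1 (-0.75 ± 0.15) downward. The counts there were 2 and 2 without shCDK12 with OHT replicate 1 and 3 and 3 without replicate 2 or 3, and thinning gave 1 and 3 of 10, with a median of -0.42 in place of 0.28. SMARCA2 lay under the filter in the fit of shNT with and without OHT, and was tested only in fits that held libraries labelled shCDK12.

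**Figure D5:**
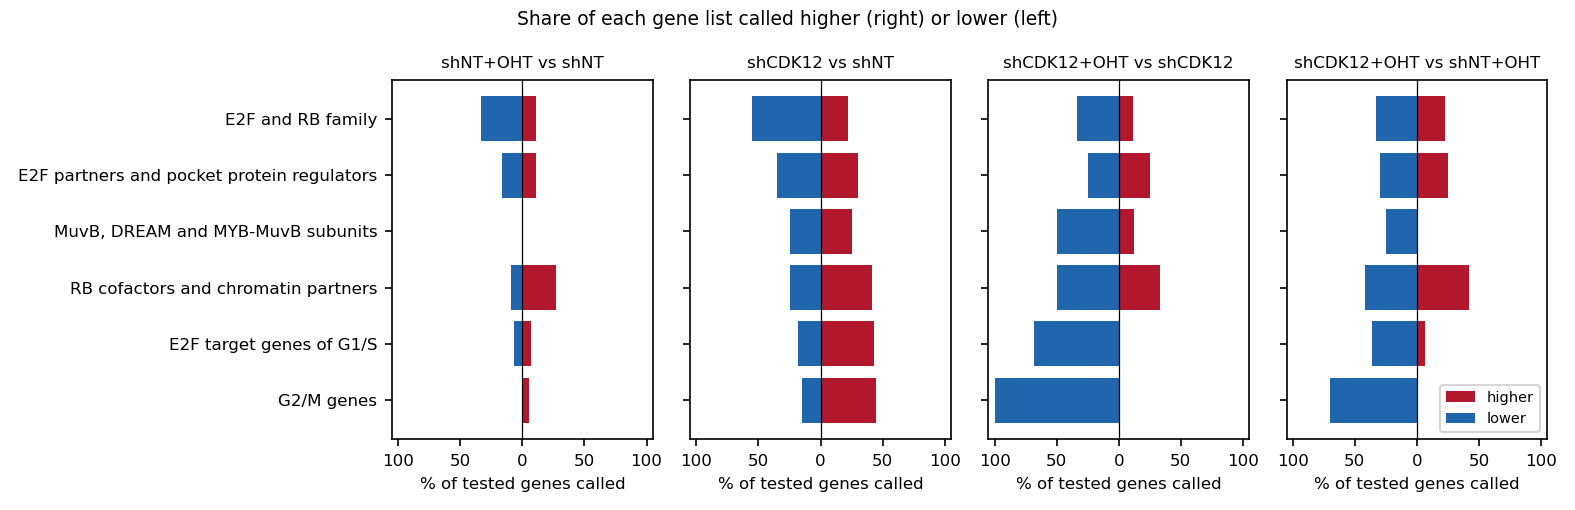
Share of the tested genes of each list called higher (red, to the right) or lower (blue, to the left), in percent, for the family and the 5 lists in the 4 comparisons of groups. The third panel shows all 20 genes of G2 and mitosis and 30 of 44 E2F targets called lower upon OHT in the libraries labelled shCDK12, beside 3 of 9 members of the family.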

How the data were processed

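The authors deposited raw counts of EU-seq reads per Entrez gene for 12 libraries, made with STAR 2.7.5c, featureCounts 1.4.5-p1 and hg19 per the submitters' processing notes. The feature counted and the use of strand are not given in the sources used here. RefSeq symbols matched 23284 of 23434 rows, and the other 150 stayed in the tests. Counts were scaled by TMM and tested with edgeR 4.0.16 (R 4.3.3), quasi-likelihood, on the genes whose mean normalized count passed 32. Benjamini-Hochberg adjustment ran over all genes tested, at 0.05. Each comparison of groups was fitted on its 6 libraries, and the interaction on 12. Errors of log2 values are SE. The scripts were tested on simulated data.

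All 10 members are described, and per list up to 2 genes with the largest rise and 2 with the largest fall among those called. Members and lists were chosen with earlier results of these data known. Alternatives were DESeq2 1.42.0, upper-quartile normalization, no filter, the replicate number as a block, thinning to 1251695 counts, removal of a trend over gene length (RefSeq span), 1 joint fit, and each library left out in turn. No libraries agreed within sampling noise. Depth, 1251695 to 10447836 counts, limits genes of few counts, and total counts differed 8.35-fold. Of the marker genes and the genes nearest to a member, 2 are not reported here.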

Additional observations from a re-analysis of the deposited data

Results flagged for a closer look

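For 6 members the OHT effect differed between the hairpin labels by the interaction term of edgeR's quasi-likelihood fit of all 12 libraries, given here as log2 values of the libraries labelled shCDK12 minus shNT. The term was 1.12 for RB1, 1.11 for RBL2, 0.70 for E2F2 and 0.67 for E2F7, and it was -0.61 for E2F3 and -0.88 for E2F4. CDK12 itself had a term of -0.83 ± 0.13 (adjusted p = 4.6e-05) and MYC one of 0.96 ± 0.13 (adjusted p = 7.9e-06), and their part in these values was not tested. The MYC counts may include reads of the MycER fusion, which were not told apart from those of the cells' own MYC gene.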

How the results depend on the processing

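Of 45 log2 values of members, 16 kept their call and sign under every alternative run. Leaving out each library in turn gave 1 to 5 members called upon OHT in shNT (4 with all libraries), 1 without shNT replicate 1 or 2 and 2 without shNT replicate 3 or shNT with OHT replicate 3. It gave 3 to 7 in shCDK12 against shNT (7 with all), 3 without shCDK12 replicate 3 and 4 without shNT replicate 1. It gave 2 to 5 upon OHT in shCDK12 (4 with all), 2 without shCDK12 replicate 3 or shCDK12 with OHT replicate 1 or 2. It gave 2 to 7 between the labels with OHT (5 with all), 2 without shCDK12 with OHT replicate 1 and 3 without replicate 2 or 3, and 6 throughout in the interaction. Thinning to the smallest total, which leaves fewer counts, gave 2, 2, 3 and 3 called in shCDK12 against shNT, OHT in shCDK12, the labels with OHT and the interaction, and 1 fit of all libraries gave 4 and 2 in the first 2 of these.

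The sign changed only for values that had not passed the test. E2F1 upon OHT in shCDK12 was -0.035 with DESeq2, -0.057 with upper-quartile normalization, -0.46 thinned, -0.025 with the length trend removed and -0.0015 in 1 fit of all libraries, and -0.12 to 0.24 leaving out each library. Its interaction term was -0.0087 with upper-quartile normalization and -0.25 thinned, and -0.024 to 0.36 leaving out each library, and its OHT effect in shNT was -0.31 to 0.019. E2F8 had an interaction term of -0.0056 with DESeq2, -0.049 with upper-quartile normalization and -0.031 to 0.18 leaving out each library, and a difference between the labels with OHT of 0.18 thinned. With the length trend removed, RBL1 upon OHT in shNT was 0.048, RB1 upon OHT in shCDK12 -0.0018 and RB1 between the labels with OHT -0.21. The cause was not tested.

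Whether equal replicate numbers mark a pairing was not settled. Deviations from the group means correlated by -0.09 to 0.30 across genes in 18 same-numbered pairs (median 0.03), 2 of them over 0.1. These 2 joined shNT with OHT and shCDK12, at 0.28 for replicate 1 and 0.30 for replicate 2. In 36 pairs with different numbers the correlations were -0.34 to 0.0996 (median -0.02), with 0 over 0.1. With the replicate block 4, 6, 3, 4 and 6 members were called in the 5 comparisons, with 0 higher and 3 lower upon OHT in shCDK12. The list of G1 and S targets had 0 higher under every alternative upon OHT in shCDK12, with 8 (thinned) to 35 lower, and the list of G2 and mitosis 13 to 20 lower.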
